A study of Mus musculus with 7 samples.

Results

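The neural crest specifiers are transcription factors that cells at the edge of the neural plate use to become neural crest. A set of 10 such genes is described here across a mouse series of sorted crest lineage cells, namely Sox10, Foxd3, Sox9, Tfap2a, Tfap2b, Snai1, Snai2, Ets1, Pax3 and Pax7, chosen by symbol from the 32285 genes of the count tables. The cells were sorted for EGFP from embryos on a mixed Swiss-Webster background, of the genotype Wnt1-Cre/+;ROSA-EGFPf/+, in which Cre made in the dorsal neural tube and early crest switches on the green reporter in those cells and their descendants. The 7 droplet libraries (10x Chromium, UMIs counted per gene and cell) each pooled embryos of 1 genotype. Controls were 1 library at E8.5 from the anterior part of the embryo, 1 at E9.5 from the pharyngeal apparatus with the heart, and 2 at E10.5 from pharyngeal arches 2 to 6 with the heart. By the study's list, the E9.5 and E10.5 dissections of both genotypes also took in the neural tube. Tbx1 null libraries were 1 at E9.5, from the same region as its control, and 2 at E10.5, from the arches below the first with the heart, and carried the same Wnt1-Cre and reporter alleles. Their titles say null and the study lists their embryos as homozygous for the loss (Tbx1-/-), whereas their genotype label reads Wnt1-Cre/+;Tbx1+/-;ROSA-EGFPf/+. The name null is used here.

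Neural crest cells arise in the dorsal neural tube, lose their epithelial form, migrate, and then become either neurons, glia and pigment cells or, in the head and pharyngeal arches, a mesenchyme that builds skeleton, connective tissue and the wall of the great arteries. Pax3, Pax7 and the AP-2 factors Tfap2a and Tfap2b act from the border of the neural plate onward, Foxd3, Sox9, Snai1, Snai2 and Ets1 take part in specification and in the change from epithelium to migratory cell, and Sox10 marks migrating crest and is kept in glia and pigment cells. Tbx1, a T-box factor lost in DiGeorge syndrome, is made mainly by mesoderm, endoderm and ectoderm of the arches, next to the crest.

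Cells were placed by their own UMIs in 5 classes that run from neural to mesenchymal. A neural cell had at least 1 Sox2 UMI, a Sox10 cell at least 1 Sox10 UMI, and a mesenchymal cell at least 2 UMIs of Twist1, Prrx1 and Prrx2 together. The order is then neural, neural and Sox10, Sox10, Sox10 and mesenchymal, and mesenchymal, with each class lacking the gate genes that do not name it. Levels are counts per 1000000 UMIs of the class (CPM). A position in this order is a class of cells and not an age. Of 65862 barcodes, 53276 cells were kept, 5587 to 9555 per library, with a median of 14824 to 22882 UMIs per cell. The Sox10 class held 6.26% of cells at E8.5, 4.64% in the control and 3.40% in the null library at E9.5, and 1.24% to 5.70% in the E10.5 libraries. The Sox10 and mesenchymal class held 30.9% at E8.5, 13.6% and 10.8% at E9.5 and at most 1.82% at E10.5, where it came to 20 and 60 control cells and 128 and 117 null cells. The neural and Sox10 class held 163 cells at E8.5 and 302 and 269 cells in control and null at E9.5. At E10.5 it held 137 and 339 control and 757 and 637 null cells. Cells with Sox2 and mesenchymal UMIs together (3.43% to 17.9%) and cells that met no gate (2.56% to 13.2%) are outside the order.

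The class names were checked against markers that set no gate. The summed mesenchyme markers (Pdgfra, Pdgfrb, Col1a1, Col1a2, Col3a1) ranged from 45.8 to 218 CPM in the Sox10 class and from 65.1 to 708 CPM in the mesenchymal class. The sum was higher in mesenchymal than in Sox10 cells in 7 of 7 libraries. The summed neural progenitor markers (Sox1, Sox3, Pax6, Nes, Hes5) ranged from 230 to 1082 CPM in the neural and from 42.7 to 197 CPM in the Sox10 class, higher in neural cells in 7 of 7 libraries. The summed glial crest markers overlapped between the neural (67.2 to 976 CPM) and Sox10 classes (244 to 946 CPM). Of these markers Erbb3 stood at 0.270 to 2.42 CPM in neural and 16.1 to 130 CPM in Sox10 cells, whereas Fabp7 was higher in neural cells (44.4 to 909 CPM against 31.2 to 249 CPM). The neural and Sox10 class held 169 to 1376 CPM of the glial sum and 96.8 to 398 CPM of the neural progenitor sum. At E10.5 the Sox10 class was mixed. Its 4 melanoblast markers summed to 484 and 374 CPM in the control and 42.6 and 289 CPM in the null libraries (at most 3.36 CPM earlier), and its 5 neuron markers to 477, 357, 654 and 3550 CPM. The null E10.5 replicate 2 library stood apart: the neuron markers also reached 775 CPM in its mesenchymal class, against 9.25 to 85.9 CPM in the other 6, and the globin Hbb-y stood at 3.47 to 5.56 CPM in its 5 classes, against at most 1.10 CPM in these 5 classes of the other libraries, while cells that met no gate held up to 1764 CPM in null E9.5. Genotype is partly tied to the kit (version 3 for null E9.5 and null E10.5 replicate 1, 3.1 for null E10.5 replicate 2 and for the control libraries of those stages), and stage to dissection and, at E8.5, to kit version 2. By the study's list, null E10.5 replicate 1 also had fewer somites than the other E10.5 libraries. Tbx1 itself stood at 5.04 and 3.79 CPM in the control and 2.98 and 2.70 CPM in the null E10.5 libraries, and at 0.687 and 0.610 CPM in control and null at E9.5. These 3' tags may lie outside the deleted part and so do not check the genotype. Pairs of libraries shared 0 to 44 cell barcodes, at most 0.410% of a library.

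Along this order the 10 genes did not share 1 profile. Pax7 and Pax3 sat at the neural end, Foxd3, Sox10 and Tfap2b rose where Sox10 was on, Tfap2a and Ets1 spread from the Sox10 cells into the mesenchyme, and Snai1 and Snai2 sat at the mesenchymal end. The class centre puts a number on this. It is the mean class position (neural 1 to mesenchymal 5) weighted by the CPM of the gene in each class, computed in each library. Over the 7 libraries it was 1.50 ± 0.45 (SD, n = 7) for Pax7, 2.11 ± 0.33 for Pax3, 2.67 ± 0.17 for Foxd3, 2.81 ± 0.28 for Tfap2b, 3.12 ± 0.32 for Tfap2a, 3.15 ± 0.15 for Ets1, 3.46 ± 0.20 for Sox9, 4.03 ± 0.16 for Snai1 and 4.40 ± 0.08 for Snai2. Sox10 sets the classes, so its centre of 2.77 ± 0.14 is a description only. In an exact sign-flip permutation test over the 7 libraries (two-sided, adjusted over 36 pairs) 33 pairs of genes were separated, most of them at p = 0.0156, the smallest value that 7 libraries can give (adjusted p = 0.0181). Any pair with the same order in all 7 libraries gets that value. The share of separated pairs was not computed over all genes, so the count does not set the members apart. Pax7 came before Pax3, Pax3 before Foxd3, Sox9 before Snai1 and Snai1 before Snai2 in 7 of 7 libraries. Foxd3 came before Tfap2b in 6 of 7 (exact permutation p = 0.0312, adjusted 0.0341). Neighbours not separated were Tfap2a and Ets1 (difference 0.03 ± 0.30, exact permutation p = 0.797) and Ets1 and Sox9 (0.31 ± 0.34, 6 of 7 libraries, exact permutation p = 0.0625, adjusted 0.0662). The E8.5 library had the highest centre of all 7 for Pax7 (2.48), Pax3 (2.85), Foxd3 (2.98), Tfap2b (3.40), Tfap2a (3.52) and Ets1 (3.45), and the lowest for Sox9 (3.12), Snai1 (3.88) and Snai2 (4.22).

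**Figure D1:**
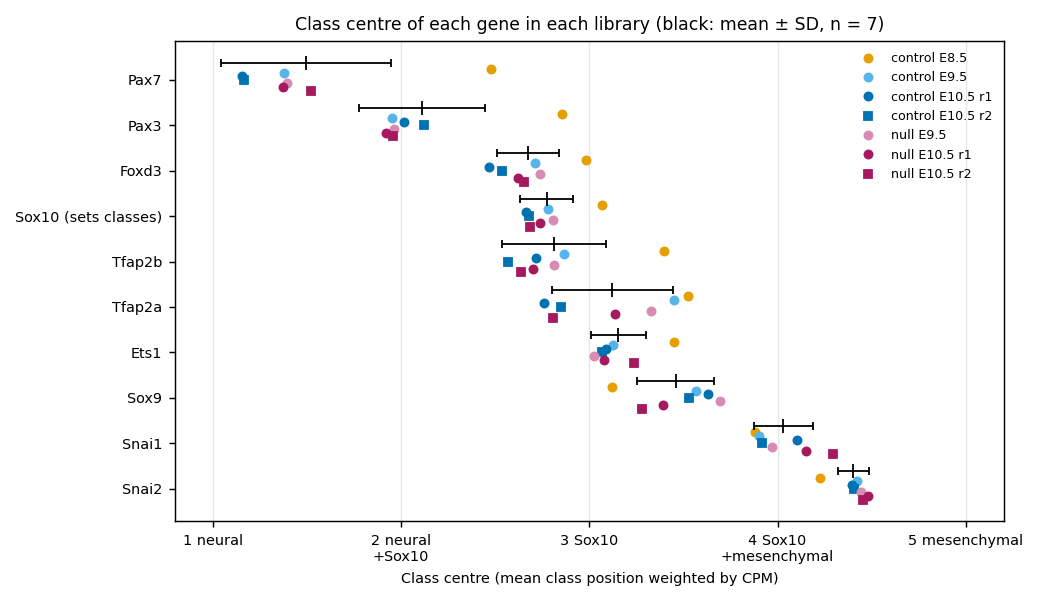
Class centre of each gene, from 1 (neural) to 5 (mesenchymal), with 1 coloured point per library and the mean ± SD of the 7 libraries in black. Pax7 and Pax3 lie nearest the neural end and Snai1 (4.03) and Snai2 (4.40) nearest the mesenchymal end, and the E8.5 library stands to the right of the others for 6 of the 9 genes that set no gate.

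Foxd3 and Snai1 both rose into the Sox10 class and parted after it, Foxd3 falling and Snai1 rising, so the 250 bases before their start sites are shown. The sequences are those of RefSeq (GRCm38.p6), which held a promoter for Foxd3, Snai1, Tfap2a, Tfap2b and Pax7, 5 of the 10 genes. Foxd3, a forkhead repressor, is on chromosome 4 from 99656299 to 99658622 (plus strand, build mm10), and Snai1, a zinc-finger repressor of E-cadherin that binds E-boxes, on chromosome 2 from 167538195 to 167542814 (plus strand). The capitals mark CACCTG, the E-box read on the other strand as CAGGTG.
Foxd3 chr4:99656049-99656298 (+): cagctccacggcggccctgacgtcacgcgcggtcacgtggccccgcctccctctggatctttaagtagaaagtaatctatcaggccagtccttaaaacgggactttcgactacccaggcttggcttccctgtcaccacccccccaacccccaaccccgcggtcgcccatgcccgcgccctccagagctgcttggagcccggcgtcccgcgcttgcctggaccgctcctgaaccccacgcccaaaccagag
Snai1 chr2:167537945-167538194 (+): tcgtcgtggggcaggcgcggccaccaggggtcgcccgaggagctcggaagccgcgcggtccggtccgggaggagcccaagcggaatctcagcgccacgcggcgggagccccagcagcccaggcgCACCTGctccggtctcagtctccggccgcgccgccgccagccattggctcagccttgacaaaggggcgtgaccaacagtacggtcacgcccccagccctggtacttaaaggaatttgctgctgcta
The Snai1 window held 1 such E-box and 1 match to the Sox core ACAAAG (reverse CTTTGT), and the Foxd3 window neither. Of 32817 promoter windows of this length, 17.2% held that E-box and 16.5% that Sox core on either strand. GC content was 70% in the Snai1 and 65.6% in the Foxd3 window. A match is letters in a window and says nothing of binding.

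Pax3 and Pax7, paired-box factors of the dorsal neural tube and the neural plate border, were the most neural of the set. Pax3 (chromosome 1, 78101267 to 78197134, minus strand) in the neural class read 28.1 CPM at E8.5, 139 CPM in control and 118 CPM in null at E9.5, 198 and 153 CPM in control and 183 and 208 CPM in null at E10.5. The Sox10 class held 82.7 CPM at E8.5, 77.6 and 65.2 CPM at E9.5, and 113, 135, 116 and 92.3 CPM at E10.5 in the same order. Its mesenchymal level was 27.3 CPM at E8.5, 2.18 and 1.97 CPM at E9.5, and 0.900, 1.27, 1.64 and 9.0 CPM at E10.5. Pax3 was thus higher in neural than in Sox10 cells in 6 of 7 libraries, and E8.5 was the exception. The mesenchymal class without Sox10 held it at its highest at E8.5. Pax7 (chromosome 4, 139737062 to 139833528, minus strand) was low throughout and peaked in the neural class of all 7 libraries, at 6.29 CPM at E8.5, 13.3 and 9.25 CPM at E9.5 and 10.1 to 14.0 CPM at E10.5. At E8.5 it was nearly level from there to the Sox10 class (5.40 CPM), whereas the Sox10 class of the other 6 libraries held 0.510 to 1.82 CPM. Its mesenchymal level was 1.79 CPM at E8.5 and 0.0376 to 0.663 CPM later.

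Foxd3 followed the Sox10 gate. In the neural class it read 0.675 to 2.79 CPM. In the neural and Sox10 class it read 18.6 CPM at E8.5, 87.7 and 102 CPM in control and null at E9.5, 205 and 116 CPM in control and 177 and 78.1 CPM in null at E10.5. In the Sox10 class the values in this order were 28.8, 105 and 124, 135 and 105, and 150 and 53.3 CPM. Both stages after E8.5 were higher than E8.5 in each of these classes, and the lowest of the later libraries was null E10.5 replicate 2. Mesenchymal cells held little Foxd3, at 3.72 CPM at E8.5, 0.782 and 0.900 CPM at E9.5 and 0.0643 to 1.18 CPM at E10.5. After each cell was thinned to 5000 UMIs, 10.9% of Sox10-class cells at E8.5 and 20.5% to 45.2% in the other libraries had a Foxd3 UMI, against 0.176% to 0.840% of neural cells, the class that serves as background. Sox10 itself (chromosome 15, 79154908 to 79165240, minus strand), an SRY-box factor needed for glia and pigment cells, read 124 CPM in its class at E8.5, 158 and 143 CPM at E9.5, and 243, 264, 267 and 209 CPM at E10.5, as a description, since its UMIs set the class.

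**Figure D2:**
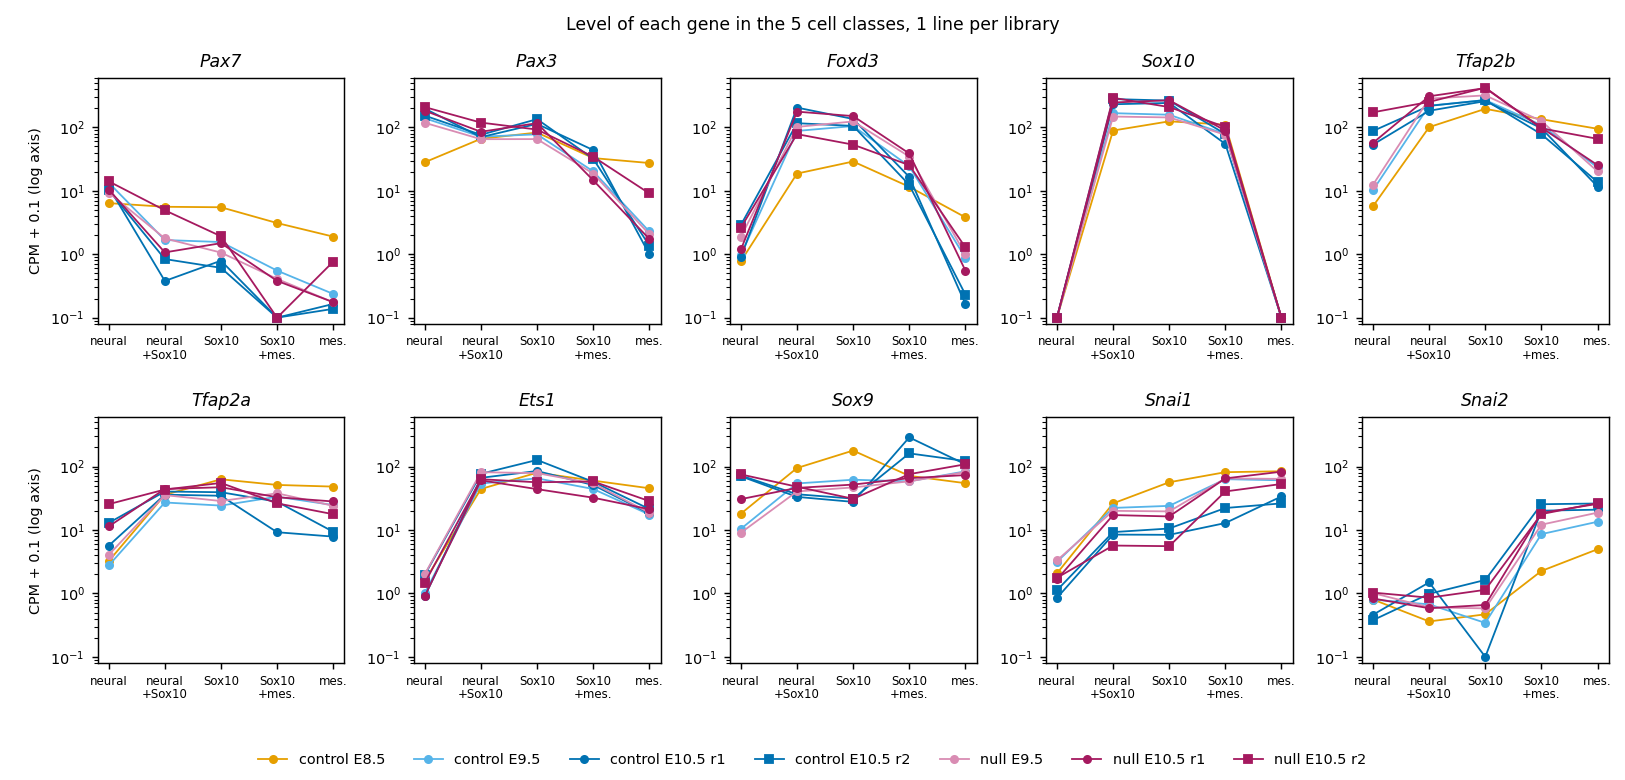
CPM plus 0.1 (log axis) of each gene in the 5 classes, 1 line per library, coloured by stage and genotype. Foxd3 and Tfap2b peak where Sox10 is on, Pax7 falls from the neural class, and Snai2 is at or under 1.53 CPM until cells carry mesenchymal UMIs.

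The AP-2 genes, Tfap2b (chromosome 1, 19208914 to 19238576, plus strand) and Tfap2a (chromosome 13, 40715302 to 40738376, minus strand), encode factors that act from the plate border to the arches. Tfap2b was the member with the highest CPM in the Sox10 class and peaked there in 7 of 7 libraries, at 196 CPM at E8.5, 269 and 319 CPM in control and null at E9.5, 259 and 269 CPM in control and 416 and 422 CPM in null at E10.5. Mesenchymal cells held less, with 94.9 CPM at E8.5, 23.3 and 20.1 CPM at E9.5, 11.6 and 13.6 CPM in control and 25.3 and 65.8 CPM in null at E10.5. Its neural level grew with stage, from 5.61 CPM at E8.5 to 10.1 and 12.4 CPM at E9.5 and 53.5 to 173 CPM at E10.5. In the 20.4% to 41.7% of E10.5 neural cells without an Elavl3 or Elavl4 UMI, 2 genes of neurons, the level was 1.50 to 11.8 CPM. The E10.5 neural value of Tfap2b thus lay in cells with neuron transcripts. Cells at E10.5 that met no gate, where the neuron markers summed to 5488 to 10452 CPM, held 279 to 604 CPM.

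Tfap2a differed less than Tfap2b between the Sox10 and mesenchymal classes. Its neural level was 3.13 CPM at E8.5 and 2.66 and 3.95 CPM in control and null at E9.5. At E10.5 the neural mean was 9.19 CPM in control and 18.4 CPM in null. In the E10.5 neural cells without an Elavl3 or Elavl4 UMI Tfap2a stood at 0.250 to 2.34 CPM. It read 62.9 CPM in the Sox10 class at E8.5, 24.2 and 28.5 CPM in control and null at E9.5, 34.5 and 39.3 CPM in control and 47.1 and 55.1 CPM in null at E10.5. The mesenchymal class held 48.2 CPM at E8.5, 24.6 and 24.0 CPM at E9.5, 7.76 and 9.28 CPM in control and 28.1 and 17.6 CPM in null at E10.5. At E8.5 and E9.5 the mesenchymal level was therefore close to that of the Sox10 class, and at E10.5 it was below it in all 4 libraries. Tfap2a overlaps 3 antisense genes in the annotation and Ets1 overlaps 1. Reads of such partners can be told apart only if counting used strand, which is not given in the sources used here.

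Ets1 (chromosome 9, 32636221 to 32757820, plus strand), an ETS factor of cranial and cardiac crest, switched sharply between neural and Sox10 cells. The neural class held 0.801 to 1.91 CPM in the 7 libraries. The Sox10 class held 79.9 CPM at E8.5, 65.1 and 78.7 CPM in control and null at E9.5, 85.0 and 127 CPM in control and 43.9 and 56.4 CPM in null at E10.5. Mesenchymal cells held 45.4 CPM at E8.5 and 17.4 to 28.4 CPM in the other 6 libraries. Neural cells thus held almost none, and Sox10 and mesenchymal cells both held it.

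Sox9 (chromosome 11, 112782224 to 112787760, plus strand), an SRY-box factor of early crest and of cartilage, changed its place in the order with stage. Sox10 cells held 179 CPM at E8.5, 61.9 and 46.8 CPM in control and null at E9.5, 27.6 and 31.1 CPM in control and 51.8 and 30.9 CPM in null at E10.5. In the mesenchymal class the values in this order were 54.6, 84.0 and 81.7, 109 and 122, and 73.3 and 109 CPM. The Sox10 class was above the mesenchymal class at E8.5 and below it in each of the 6 later libraries. Among the E10.5 cells without Sox2 and Sox10 UMIs, Sox9 differed with the number of mesenchymal UMIs. In the control libraries it read 20.4 and 62.8 CPM at 0 to 1 such UMIs, 195 and 216 CPM at 2 to 3, 208 and 214 CPM at 4 to 7, 166 and 140 CPM at 8 to 15 and 75.5 and 82.8 CPM at 16 or more. In the null libraries the same bins held 9.44 and 9.42 CPM, 26.2 and 39.8 CPM, 80.3 and 345 CPM, 141 and 273 CPM, and 71.5 and 82.4 CPM. All 4 libraries were thus higher at 8 to 15 than at 16 or more. The null libraries had 32 and 80 cells at 2 to 3 and 38 and 53 cells at 4 to 7, and differences between the genotypes within a bin were not tested. The neural class also held Sox9 late, at 30.6 to 75.1 CPM at E10.5 against 8.95 to 18.0 CPM earlier.

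Snai1 and Snai2 (Snail and Slug), zinc-finger repressors that drive the loss of epithelial junctions, were not interchangeable here. Snai1 in the neural class read 0.749 to 3.21 CPM. Sox10 cells held 56.5 CPM at E8.5, 23.9 and 19.5 CPM in control and null at E9.5, 8.29 and 10.5 CPM in control and 16.3 and 5.46 CPM in null at E10.5. Mesenchymal cells held 84.2 CPM at E8.5, 60.6 and 63.9 CPM at E9.5, 33.7 and 26.2 CPM in control and 82.9 and 53.0 CPM in null at E10.5. Snai1 was thus higher in Sox10 than in neural cells and higher still in mesenchymal ones. Snai2 (chromosome 16, 14705852 to 14709385, plus strand) rested on 0 to 6 UMIs in the Sox10 class of each library, at most 1.53 CPM. The 0 UMIs of control E10.5 replicate 1 allow up to 2.07 CPM (3 counts). Mesenchymal levels of Snai2 were 4.87 CPM at E8.5, 13.4 and 18.7 CPM in control and null at E9.5, 20.8 and 26.1 CPM in control and 25.7 and 26.5 CPM in null at E10.5. The class with Sox10 and mesenchymal UMIs already held 2.16 to 25.4 CPM. Snai2 was the only member to peak in the mesenchymal class in all 7 libraries, and the E8.5 library had its lowest value. Snai1 peaked there in 5, and in the Sox10 and mesenchymal class in the 2 E9.5 libraries.

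The step from neural to Sox10 cells was tested on counts summed per library and class over the 7 libraries, with the library as a block (edgeR quasi-likelihood, adjusted over all 13750 genes tested, called under 0.05). It called 5562 genes, 40.5% of those tested, so a called member is no exception. Of the 9 members that set no gate, 5 rose and 1 fell. Foxd3 rose by 6.12 ± 0.38 (log2, SE; edgeR adjusted p = 6.45e-06) and Ets1 by 5.89 ± 0.16 (edgeR adjusted p = 1.57e-07). Snai1 rose by 3.27 ± 0.33, Tfap2b by 3.23 ± 0.55 and Tfap2a by 2.55 ± 0.36, and Pax7 fell by 2.52 ± 0.42. Foxd3 and Ets1 had the largest rises of the 9, and the other risers shared a range of about 1 log2 unit. Not called were Pax3 (-0.40 ± 0.28), Sox9 (0.88 ± 0.69) and Snai2 (-0.24 ± 0.47). Without the E8.5 library Pax3 fell by 0.70 on the log2 scale (edgeR adjusted p = 0.00092).

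The step from Sox10 to mesenchymal cells called 4229 of 13428 genes, 31.5%. Of the 9 members 2 rose and 6 fell. Snai2, with 0 to 6 UMIs a library in the Sox10 class and 38 to 2772 in the mesenchymal class, passed the filter through the latter. Its value of 4.98 ± 0.24 rests on those few UMIs, and its call is given no weight. Snai1 rose by 1.72 ± 0.25 (edgeR adjusted p = 0.00125). Foxd3 fell by 7.31 ± 0.75, Pax3 by 5.01 ± 0.67, Tfap2b by 3.47 ± 0.40, Pax7 by 2.82 ± 0.44 and Ets1 by 1.65 ± 0.22, the highest edgeR adjusted p of these being 0.00171. Pax7 was low in both classes, with 1 to 44 UMIs a library in the Sox10 and 4 to 14 in the mesenchymal class, so the size of its fall is uncertain. Snai1 was the only member called as a rise at both steps, and Sox9, with a positive value at both, was called at neither. Tfap2a fell by 0.96 ± 0.28 (edgeR adjusted p = 0.0285), and this call was lost without any 1 of the 4 E10.5 libraries (edgeR adjusted p = 0.0594 to 0.0894). Sox9 was not called (0.81 ± 0.40, edgeR adjusted p = 0.154), but without the E8.5 library it rose by 1.23 (edgeR adjusted p = 0.00299).

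**Figure D3:**
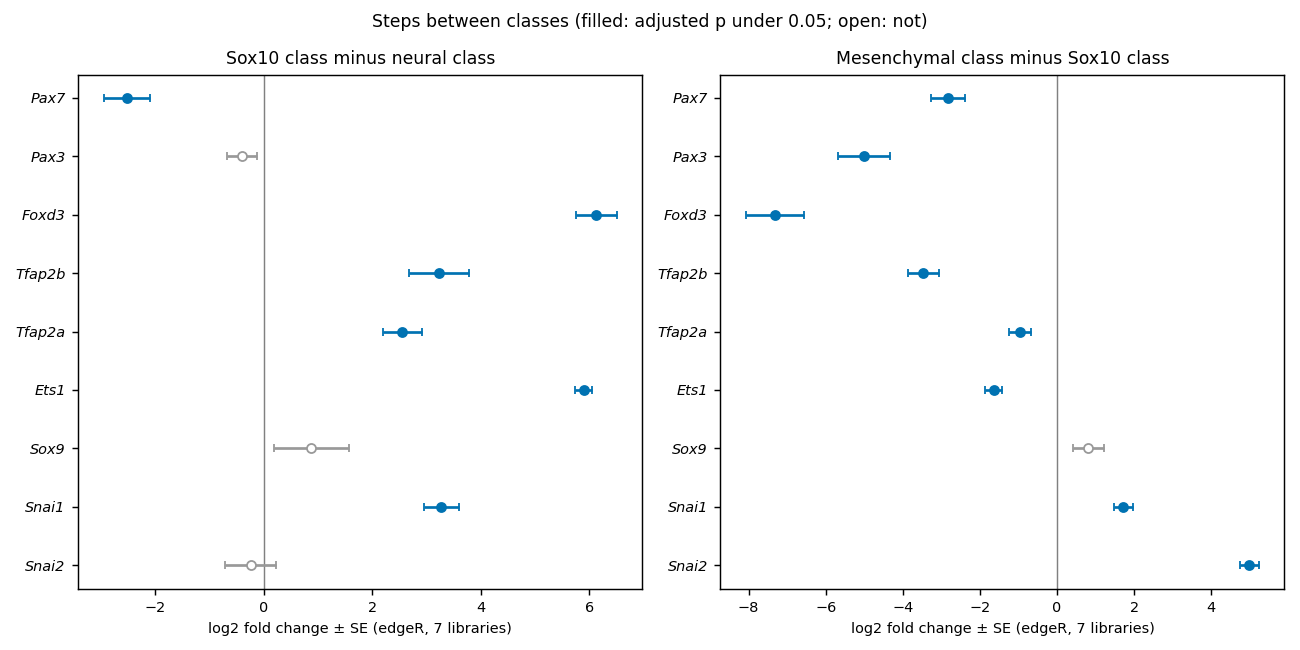
log2 fold change ± SE of the 9 members that set no gate, for the Sox10 class over the neural class and the mesenchymal class over the Sox10 class (edgeR, 7 libraries), with filled points for adjusted p under 0.05. Foxd3 gained 6.12 at the first step and lost 7.31 at the second, and Snai1 is the only member with a filled point right of 0 in both panels.

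Other genes of the crest programme, from lists chosen for the tissue, moved with these steps. Sox10 and mesenchymal genes set the classes, so the directions of the glial and mesenchymal lists are a description only. From neural to Sox10 cells all 11 tested genes of the dorsal neural tube and plate border fell (median -4.31, against -0.01 over all genes), with Olig3 and Wnt3a, a transcription factor and a Wnt ligand of the roof and dorsal tube, at -5.63 ± 0.59 and -5.37 ± 0.65. Of 10 tested glial and Sox10-dependent genes 9 rose, with Erbb3, a neuregulin receptor, at 6.11 ± 0.28 and Ret, a neurotrophic receptor, at 5.29 ± 0.37, and Fabp7, a lipid-binding protein that radial glia of the neural tube also make, fell by 2.12 ± 0.32. Of 15 other crest transcription factors 9 rose and 2 fell, led by Tfap2c (4.23 ± 0.41), another AP-2 factor, and Sox5 (2.71 ± 0.14), while Id1 and Id3, inhibitors of basic helix-loop-helix factors, fell by 2.42 ± 0.42 and 1.79 ± 0.21. Of 11 mesenchymal genes 7 rose and none fell, Dlx1 by 5.09 ± 0.34. Of 11 adhesion genes 6 rose and 2 fell, among them the cadherin Cdh6 (3.78 ± 0.35) upward and Cdh2 (-0.50 ± 0.10) downward.

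From Sox10 to mesenchymal cells all 10 tested glial genes fell (median -4.03, against 0.02 over all genes), Ednrb, the endothelin receptor of pigment and enteric crest, by 6.01 ± 0.49. Of 12 mesenchymal genes 9 rose (median 2.70), Six2 by 5.51 ± 0.43 and Twist2 by 5.07 ± 0.53. Of 12 adhesion genes 2 rose and 8 fell, with Cdh11, a mesenchymal cadherin, at 3.65 ± 0.44 and Cxcr4, a chemokine receptor of migrating cells, at -4.14 ± 0.49. Of 15 other crest factors 2 rose and 6 fell. Id1 rose by 2.42 ± 0.31, and the nuclear receptor Rxrg and the E-box factor Zeb2 fell by 3.03 ± 0.68 and 2.80 ± 0.31. Of 11 border genes Msx1 and Msx2 rose and Msx3 fell, by 2.23 ± 0.20. Tfap2b, Foxd3 and Pax3 thus fell beside the glial genes, and Snai1 rose beside the mesenchymal ones.

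Inside the Sox10 cells without Sox2 the change could be followed by the number of mesenchymal UMIs each cell carried. At E8.5 Foxd3 read 28.8, 20.7, 14.2, 5.32 and 4.51 CPM in cells with 0 to 1, 2 to 3, 4 to 7, 8 to 15 and 16 or more mesenchymal UMIs, while Snai1 read 56.5, 63.4, 67.7, 95.3 and 115 CPM. Pax3 read 82.7, 54.7, 36.9, 22.0 and 12.3 CPM across the same bins, and Sox9 179, 110, 74.8, 54.0 and 42.1 CPM. Foxd3, Pax3 and Sox9 were lower in each bin than in the one before, and Snai1 higher. Tfap2a lay between 49.7 and 62.9 CPM with no such order, and Tfap2b went from 196 to 104 CPM.

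At E9.5 the fall of Foxd3 came at more mesenchymal UMIs than at E8.5. It read 105, 114, 87.8, 21.5 and 3.48 CPM in the control and 124, 135, 109, 49.7 and 4.21 CPM in the null library. Ets1 read 65.1, 73.5, 83.8, 60.9 and 32.2 CPM in the control, so that its highest bin was the middle one, as in the null library (98.3 CPM there, 78.7 CPM in the first bin and 37.6 CPM in the last). Snai1 was 23.9, 31.7, 32.5, 61.4 and 71.8 CPM in the control and 19.5, 22.3, 36.4, 53.0 and 77.9 CPM in the null library. In cells with 4 to 7 mesenchymal UMIs Foxd3 stood at 87.8 and 109 CPM at E9.5 and at 14.2 CPM at E8.5. The same bin is not the same place at both stages. In the mesenchymal class Twist1, Prrx1 and Prrx2 read 179, 42.3 and 151 CPM at E8.5. In control E9.5 they read 723, 198 and 333 CPM. Snai2 in the control E9.5 library rested on 2, 1 and 0 UMIs in the first 3 bins and read 6.53 CPM (24 UMIs) at 8 to 15 and 11.1 CPM (220 UMIs) at 16 or more. A cell with more UMIs in all also has more mesenchymal UMIs, and the median total rose from 22955 to 32625 UMIs per cell across the E8.5 bins. CPM divides by the total, but its part in the order of the cells was not tested.

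**Figure D4:**
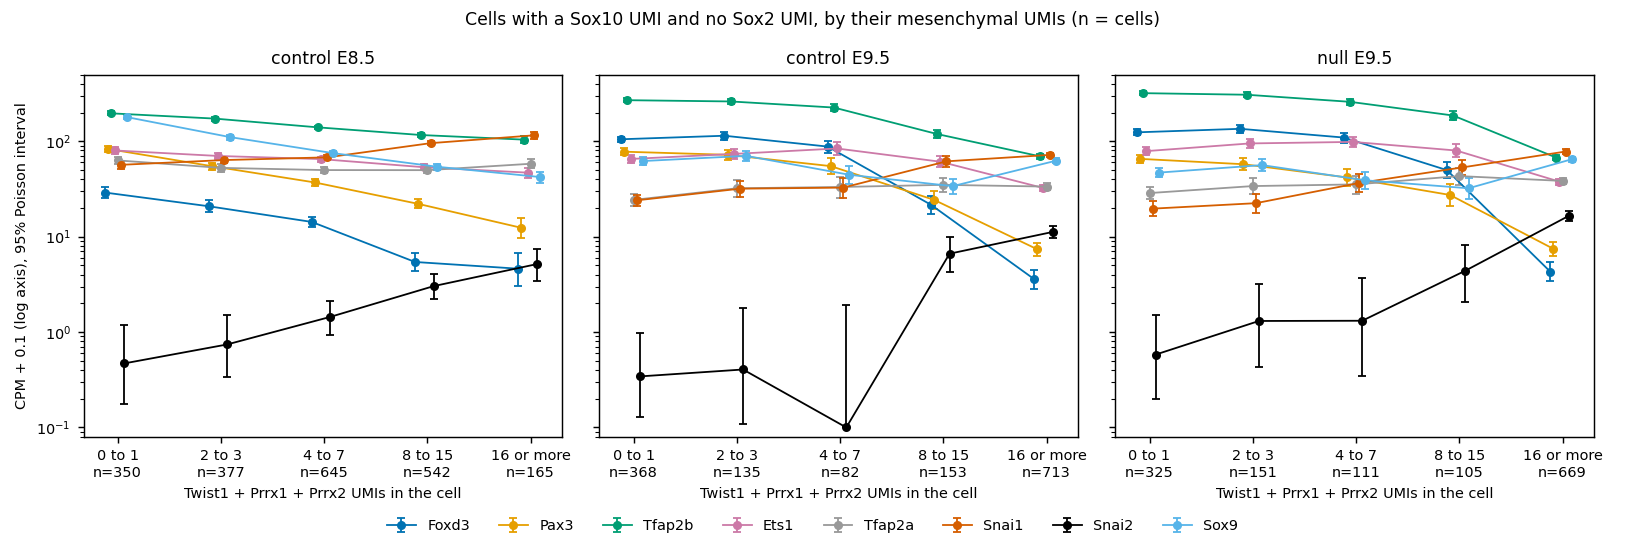
CPM plus 0.1 (log axis, exact 95% Poisson intervals, counting error only) of 8 members in cells with Sox10 and no Sox2 UMIs, split by their Twist1, Prrx1 and Prrx2 UMIs, for 3 libraries. Foxd3 ends at 4.51 CPM at E8.5, 3.48 CPM in control E9.5 and 4.21 CPM in null E9.5, while Snai1 climbs to 115, 71.8 and 77.9 CPM.

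Cells with mesenchymal UMIs and no Sox10 UMI also held these transcripts at E9.5. Among cells without Sox2 and Sox10 UMIs Foxd3 read 17.5 CPM in the control and 22.6 CPM in the null library at 4 to 7 mesenchymal UMIs and 0.327 and 0.230 CPM at 16 or more. At E10.5 the 4 to 7 bin held only 0 and 2 Foxd3 UMIs in the control and 2 and 1 in the null libraries, too few to compare the genotypes. Pax3 in these cells went from 19.7 and 20.1 CPM at 4 to 7 UMIs to 1.36 and 1.17 CPM at 16 or more at E9.5. At E10.5 Pax3 at 4 to 7 UMIs was 1.44 and 1.05 CPM in control and 6.69 and 21.6 CPM in null, so that null replicate 2 (53 cells) held as much as the E9.5 libraries. A Sox10 transcript can also have been missed in any of these cells.

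Between E9.5 and E10.5, 3 of the 8 members tested fell in the mesenchymal class (edgeR, genotype as a covariate, 2 against 4 libraries), where 4187 of 15707 genes were called, 26.7%, so a called member is no exception. Tfap2a fell by 1.34 ± 0.34 (edgeR adjusted p = 0.0263), Snai1 by 0.99 ± 0.30 (edgeR adjusted p = 0.0450) and Foxd3 by 2.14 ± 0.66 (edgeR adjusted p = 0.0464). Foxd3 rested on few UMIs here, with 4 (0.0643 CPM) in control E10.5 replicate 1, so no weight is put on its call. The values are 24.6 and 24.0 CPM of Tfap2a at E9.5 against 7.76 to 28.1 CPM at E10.5, so the stages overlapped through the null libraries. Without the control E9.5 library none was called (edgeR adjusted p = 0.339 to 0.524), nor without control E10.5 replicate 1 or 2, and without the null E9.5 library only Tfap2a was. The size of the fall moved too, from -1.99 to -0.61 for Tfap2a, -1.48 to -0.46 for Snai1 and -3.38 to -0.78 for Foxd3 on leaving out 1 library, smallest without the control and largest without the null E9.5 library. In the control libraries alone, with a single E9.5 library that is assumed to vary like the E10.5 ones, Tfap2b was -1.35 and Pax3 -1.46. Over both genotypes Tfap2b (-0.48 ± 0.47), Pax3 (-0.45 ± 0.69), Snai2 (0.14 ± 0.19), Ets1 (-0.21 ± 0.17) and Sox9 (-0.21 ± 0.19) were not called, and Pax7 was too low to be tested. The log2 values carry TMM library factors and the CPM do not, so their signs can differ. Ets1 read 17.4 and 18.6 CPM in control and null at E9.5. At E10.5 it read 18.2 and 21.3 CPM in control and 21.2 and 28.4 CPM in null. Snai1, called as a fall, read 63.9 CPM in null E9.5 and 82.9 and 53.0 CPM in null E10.5. Of 15 other crest factors 7 fell in this comparison, Myc by 2.57 ± 0.41 and Mycn by 2.11 ± 0.42, and Nr2f1 rose by 0.72 ± 0.18, while 5 of 12 mesenchymal genes rose, Col1a1, the fibrillar collagen chain, by 3.98 ± 0.36. Of the other lists 3 adhesion genes rose and 1 fell of 11, 1 glial gene rose and 2 fell of 9, and 1 border gene, Msx2, fell of 11 (-1.69 ± 0.37). Arch 1 was left out of the dissection at E10.5, and the effect of that cannot be told apart from the stage.

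Among Sox10 cells 0 of 7 members tested were called between these stages by edgeR (2 at an unadjusted p under 0.05), where 920 of 11659 genes were called, 7.89%. DESeq2 called 2002 genes, more than edgeR, and 2 of the 7 members, Snai1 and Sox9. The 2 nearest were these same genes, Snai1 at -1.42 ± 0.39 (edgeR adjusted p = 0.0586) and Sox9 at -0.99 ± 0.29 (edgeR adjusted p = 0.0647). In the control libraries alone, where the single E9.5 library is again assumed to vary like the others, Snai1 was -1.66 and Sox9 -1.42. Both genes were called by edgeR without either null E10.5 library, and without replicate 1 so were 2865 genes in all. The other tested members were Foxd3 (-0.41 ± 0.37), Ets1 (-0.39 ± 0.33), Tfap2b (-0.19 ± 0.18), Pax3 (0.31 ± 0.19) and Tfap2a (0.36 ± 0.20), and Pax7 and Snai2 were too low to be tested. Among the glial and Sox10-dependent genes 4 of 10 rose, with Mitf, the master regulator of melanocytes, at 3.91 ± 0.35, and none fell. Sox8, the closest relative of Sox9 and Sox10 on the list of 15 other factors, rose by 1.65 ± 0.38 as its only call. Of 7 mesenchymal genes 1 rose and 2 fell (Meox1 by 5.72 ± 0.64 and Alx1 by 1.84 ± 0.39), of 10 adhesion genes Cdh11 fell, and no border gene of 7 was called by edgeR. The melanoblast and neuron markers given above moved with this stage difference in the Sox10 class, and their part in it was not tested.

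At E10.5 the null and control libraries could be compared with replicates, 2 against 2. Among mesenchymal cells edgeR called 0 of 8 members and 6 of 15161 genes, 0.0396%. At an unadjusted p under 0.05 there were 1776 genes, 5 of them members, and DESeq2 called 344 genes and 2 members, Tfap2a and Tfap2b. In simulated counts of this design 9% of genes changed 2-fold were recovered, so most changes of that size would be missed. The changed genes were drawn from those with higher mean counts, so this share does not cover members with few UMIs. Snai1 stood at 33.7 and 26.2 CPM in control and 82.9 and 53.0 CPM in null, a mean of 29.9 ± 5.34 CPM against 68.0 ± 21.1 CPM (SD, n = 2), with no overlap (1.06 ± 0.32 on the log2 scale, edgeR adjusted p = 0.340). Tfap2a stood at 7.76 and 9.28 CPM against 28.1 and 17.6 CPM (1.30 ± 0.32, edgeR adjusted p = 0.302). Tfap2b stood at 11.6 and 13.6 CPM against 25.3 and 65.8 CPM (1.66 ± 0.39, edgeR adjusted p = 0.302). With 2 against 2 libraries 46.1% of the 15161 genes did not overlap between the genotypes, so non-overlap sets no member apart. It was seen for 5 of the 8 members tested, all higher in null, namely these 3 genes, Foxd3 and Pax3. Foxd3 read 0.0643 and 0.132 CPM against 0.453 and 1.18 CPM, and Pax3 0.900 and 1.27 CPM against 1.64 and 9.0 CPM. Foxd3 rested on few UMIs (4 in control replicate 1) and passed the count filter through the null libraries, so no weight is put on it. Snai2 was at 20.8 and 26.1 CPM against 25.7 and 26.5 CPM (0.01 ± 0.22) and Ets1 at 18.2 and 21.3 CPM against 21.2 and 28.4 CPM (0.16 ± 0.22). Sox9 was at 109 and 122 CPM against 73.3 and 109 CPM (-0.51 ± 0.24, edgeR adjusted p = 0.457). Pax7, at 4 and 4 UMIs in control and 4 and 14 UMIs in null, was too low to be tested. Over all kept cells Tfap2b read 66.2 and 53.6 CPM in control and 118 and 192 CPM in null. Tfap2a read 13.8 and 15.2 against 28.9 and 34.3 CPM, Foxd3 8.49 and 9.30 against 37.0 and 18.4 CPM, and Pax3 76.4 and 24.2 against 88.0 and 120 CPM. Snai1 overlapped there (18.6 and 21.4 against 33.4 and 14.7 CPM). The mesenchymal class held 2720 and 6184 control and 2053 and 936 null cells. The part of these library differences was not tested.

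The size of these values moved with the null E10.5 library left out, and the part of the neuron transcripts of replicate 2 was not tested. Without null replicate 2 the log2 values were 1.42 for Snai1, 1.67 for Tfap2a, 0.95 for Tfap2b, 0.54 for Pax3 and 2.07 for Foxd3. Without null replicate 1 they were 0.61 for Snai1, 0.83 for Tfap2a, 2.17 for Tfap2b, 2.82 for Pax3 and 3.29 for Foxd3. Pax7 passed the count filter of the latter fit only through null replicate 2 (14 UMIs, against 4 and 4 in control), so its value is not read. In each of these fits the lone library of its genotype is assumed to vary like the other pair. In mesenchymal cells without an Elavl3 or Elavl4 UMI, 89.3% and 61.3% of the class in the null libraries, Snai1 read 35.2 and 26.7 CPM in control and 84.6 and 55.1 CPM in null. Tfap2a read 7.56 and 8.59 CPM against 27.2 and 13.6 CPM, and Tfap2b 11.0 and 12.7 CPM against 22.9 and 36.7 CPM. Pax3 read 0.834 and 0.983 CPM against 1.26 and 7.91 CPM, and Foxd3 rested on 3 and 11 UMIs against 18 and 8 UMIs. In those cells 6 of the 8 members did not overlap, Snai1, Tfap2a and Tfap2b among them, against 45.9% of all genes. From all cells to those cells, replicate 2 went from 65.8 to 36.7 CPM for Tfap2b and from 9.0 to 7.91 CPM for Pax3. No member was called in those cells either.

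At E9.5, with 1 library per genotype and no test, the mesenchymal levels of most members lay close together. Furthest apart were Snai2 (null over control 1.39) and Pax7 (0.544, on few UMIs). Snai1 read 60.6 CPM in the control and 63.9 CPM in the null library, Tfap2a 24.6 and 24.0 CPM, Tfap2b 23.3 and 20.1 CPM, Ets1 17.4 and 18.6 CPM and Sox9 84.0 and 81.7 CPM. Snai2 read 13.4 and 18.7 CPM, Pax3 2.18 and 1.97 CPM, Foxd3 0.782 and 0.900 CPM and Pax7 0.136 and 0.0743 CPM. The E10.5 null values of Snai1 (82.9 and 53.0 CPM) lay around the E9.5 values of both genotypes, and the E10.5 control values below them. The same held for Tfap2a, at 28.1 and 17.6 CPM in the null E10.5 libraries. The study lists fewer somites for null E10.5 replicate 1, the first value of each null pair, than for the other E10.5 libraries. The part of that age difference in these values was not tested.

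**Figure D5:**
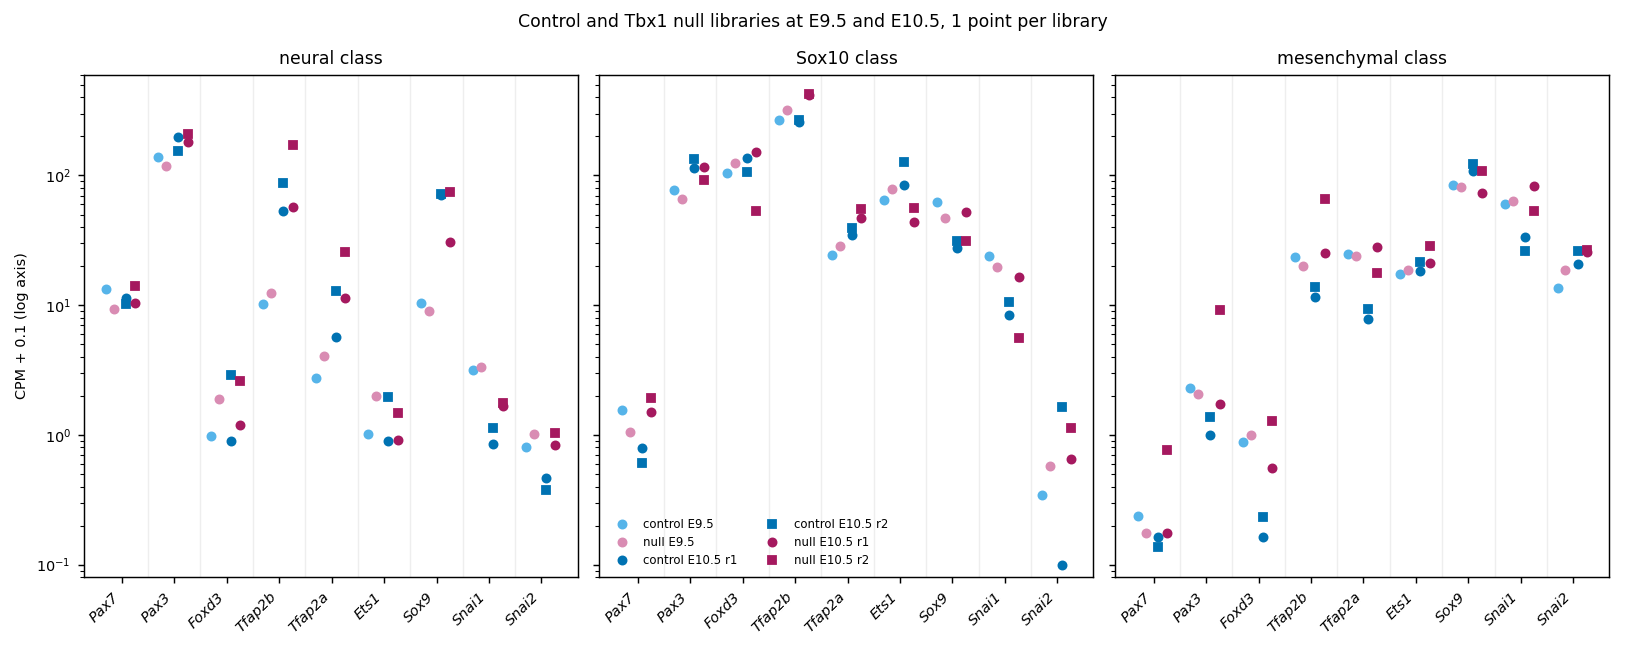
CPM plus 0.1 (log axis) of the 9 members that set no gate in the neural, Sox10 and mesenchymal classes, 1 point per library, control in blue and null in pink and red. In the mesenchymal class at E10.5 the null points of Tfap2b, Tfap2a and Snai1 lie above the control points (Snai1 82.9 and 53.0 CPM against 33.7 and 26.2 CPM). There edgeR called no member, and DESeq2 called Tfap2a and Tfap2b.

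In the Sox10 class at E10.5 edgeR called 0 of 7 members and 0 of 11073 genes (0%), with 889 genes at an unadjusted p under 0.05 and 46 called by DESeq2, none of them a member. In simulated counts of this design 0% of genes changed 2-fold were recovered. Ets1 stood at 85.0 and 127 CPM in control and 43.9 and 56.4 CPM in null (-1.16 ± 0.29, edgeR adjusted p = 0.607). Tfap2b stood at 259 and 269 CPM against 416 and 422 CPM (0.60 ± 0.21, edgeR adjusted p = 0.609), and Tfap2a at 34.5 and 39.3 CPM against 47.1 and 55.1 CPM (0.39 ± 0.25, edgeR adjusted p = 0.684). The other tested members were Pax3 (-0.31 ± 0.25), Foxd3 (-0.28 ± 0.47), Snai1 (0.17 ± 0.56) and Sox9 (0.44 ± 0.33), while Pax7 and Snai2 were too low to be tested. Ets1, Tfap2b and Tfap2a, 3 of the 7 members tested, did not overlap between the genotypes, against 40.2% of all genes. The value of Ets1 turned on which cells counted as Sox10 cells. With at least 2 Sox10 UMIs and stricter other gates it read 71.4 and 128 CPM in control and 39.9 and 76.4 CPM in null, and in cells without Elavl3 or Elavl4 UMIs 113 and 173 CPM against 55.8 and 158 CPM, so that the groups overlapped in both. The latter cells were 50.0% and 50.2% of the class in control and 30.1% and 15.1% in null, where replicate 2 had 26 of them. In these cells 4 of the 7 members did not overlap, against 39.6% of all genes, among them Tfap2b at 216 and 209 CPM against 355 and 319 CPM.

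Cells with a single Sox10 UMI set null E10.5 replicate 2 apart. Its 258 cells with 1 Sox10 UMI and fewer than 2 mesenchymal UMIs held 5.49 CPM of Foxd3 (exact Poisson interval 3.58 to 8.04) and 4.64 CPM of Ets1 (2.91 to 7.03). Its 3421 cells without Sox10 held 3.66 CPM of Foxd3 (3.16 to 4.21) and 1.53 CPM of Ets1 (1.22 to 1.90), so that the counting intervals overlapped for Foxd3 and not for Ets1. In the other 6 libraries cells with 1 Sox10 UMI held 16.6 to 121 CPM of Foxd3 and 30.8 to 81.9 CPM of Ets1. From 8 Sox10 UMIs on, the same library held 102 CPM of Foxd3 and 76.6 CPM of Ets1.

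In the neural class edgeR called 0 of 9 members and 0 of 14708 genes (0%), with 838 genes and 0 members at an unadjusted p under 0.05 and 46 genes and no member by DESeq2. Simulated 2-fold changes were recovered for 5.5% of genes. Pax3 read 198 and 153 CPM in control and 183 and 208 CPM in null, and Pax7 11.3 and 10.1 CPM against 10.3 and 14.0 CPM, both overlapping. Of the 9 members 2 did not overlap, against 37.4% of all genes, namely Snai1 (mean 0.886 CPM in control and 1.61 CPM in null) and Snai2 (0.320 and 0.831 CPM), both higher in null and at low levels. Log2 differences, null over control, were 0.09 ± 0.23 for Pax3, 0.11 ± 0.25 for Pax7, 0.05 ± 0.65 for Foxd3, 0.64 ± 0.47 for Tfap2b, 0.97 ± 0.46 for Tfap2a, -0.27 ± 0.55 for Ets1, -0.50 ± 0.37 for Sox9, 0.84 ± 0.43 for Snai1 and 1.23 ± 0.55 for Snai2. The Sox10-to-mesenchymal step was also compared between genotypes within the E10.5 libraries. This interaction called 0 of 9 members and 0 of 14212 genes in edgeR (0%), with 1187 genes and 7 members at an unadjusted p under 0.05, and 85 genes and 1 member, Ets1, in DESeq2. Ets1 had the smallest edgeR adjusted p of the members (1.30 ± 0.17, 0.0723), and its fall from Sox10 to mesenchymal cells was thus shallower in the null libraries without passing the threshold. The other members, with an edgeR adjusted p of at least 0.511, read 2.74 ± 0.93 for Foxd3, 2.02 ± 0.77 for Pax3, 0.99 ± 0.36 for Snai1, 0.92 ± 0.38 for Tfap2b, 0.85 ± 0.30 for Tfap2a, 0.74 ± 1.41 for Pax7, 0.62 ± 0.78 for Snai2 and -1.0 ± 0.39 for Sox9. Null replicate 2 and replicate 1 each decided sizes here. Sox9 was -1.49 without replicate 2 and -0.24 without replicate 1, Pax3 0.64 and 3.37, and Foxd3 1.66 and 4.48. None of the 5 lists of other crest genes had a called gene in any of these 4 genotype comparisons by edgeR. Their smallest edgeR adjusted p was 0.0723.

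The genes whose levels were most like each member's were ranked by Pearson's r of log2(CPM + 1) over 35 points (5 classes of 7 libraries) among 10137 genes, as a description, since points of 1 library share cells' depth and the classes share their gates. Foxd3 was nearest to Phactr1 (0.967), Gm12688 (0.962) and Cdh6 (0.962), and to Sox10 Foxd3 itself was nearest (0.951), followed by Gm12688 (0.931) and Erbb3 (0.929). Gm12688 is a long noncoding RNA gene on chromosome 4 from 99653607 to 99654983 on the minus strand, 1315 bp from the start of Foxd3. Snai2 was nearest to Pdgfrb (0.980), Fli1 (0.980) and Prrx1 (0.977), and Snai1 to Oaf (0.928), Gsto1 (0.911) and Alx1 (0.904), a homeobox factor of the frontonasal mesenchyme. Prrx1 sets a gate. Ets1 was nearest to Mef2c (0.958), Sdc3 (0.941) and Dlc1 (0.941), Tfap2b to Npr3 (0.914), Ngfr (0.885) and Lgi4 (0.881), and Tfap2a to Tmc6 (0.868), Cdc42se1 (0.860) and Gpsm3 (0.837). Pax7 was nearest to Ppp1r1a (0.952), Podxl (0.941) and Wnt1 (0.930), Pax3 to Snx10 (0.894), Celf2 (0.893) and Pla2g7 (0.876), and Sox9 to Col9a1 (0.728), Igf2 (0.701) and Smarca2 (0.677). Sox9 had the lowest best match of the 10. Between members r was 0.869 for Foxd3 and Tfap2b, 0.785 for Tfap2a and Tfap2b and 0.602 for Snai1 and Snai2.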

How the data were processed

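Single cells of 7 libraries were analysed. Per the labels and the study's methods, the authors ran Cell Ranger 6.0.1 against mm10, and the deposited matrices hold raw UMI counts per gene and cell, with a features and a barcodes file each. From these counts, a cell was kept if it had 1000 or more genes and no more than 10% of its UMIs from mitochondrial genes, and those with the highest Scrublet-type doublet scores were removed (0.8% per 1000 barcodes). Depth was 140264662 to 234844769 UMIs per library. Cells were placed in classes by raw UMIs, and counts were summed per library and class, since cells are not replicates. Classes with under 20 cells in a library were not used in a fit. The main test was edgeR 4.0.16 (TMM, filterByExpr, quasi-likelihood, Benjamini-Hochberg over all genes tested, called under 0.05), in R 4.3.3. DESeq2 1.42.0 was an alternative. The genes Sox2, Sox10, Twist1, Prrx1 and Prrx2 set the classes and were given no test. Intervals of CPM and shares are exact, at 95%, and cover counting error only, as does the limit of 3 counts for a level of 0. Shares of cells with a UMI were taken after thinning each cell to 5000 UMIs.

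The members, gene lists and rules were chosen with earlier results of these data known. By rule every member was to be named in each comparison, and Sox10, which sets a gate, has levels only. From each list of other genes up to 2 called genes with the largest rise and fall were eligible to be named, and for each member the 3 genes with the highest correlation among those with at least 10 CPM in a library and class. Gene positions are from GENCODE vM21 (GRCm38), which held 32235 of 32285 gene identifiers. Nothing says that replicate libraries came from separate litters, so p-values measure the spread between libraries. The fitting code was tested on simulated data, in which the changed genes were drawn from those with higher mean counts. Alternatives tried were DESeq2, edgeR with the size factors of DESeq2, every gene without a count filter, other cell and doublet filters, other gates, other sets of libraries, a replicate block, leaving out each library, and, added after the data were seen, cells without Elavl3 and Elavl4 UMIs. Protein sequences were not used here, and some markers of the fixed lists are not reported here.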

Additional observations from a re-analysis of the deposited data

Results flagged for a closer look

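Several values lay on opposite sides at different stages. None of these differences was tested, and with groups of 1 or 2 libraries a single library can set them. Sox9 was lower in mesenchymal than in Sox10 cells at E8.5 (log2 ratio of CPM plus 0.5, -1.70) and higher at E9.5 (0.62) and E10.5 (1.55), so that E8.5 minus E9.5 came to -2.32 and E8.5 minus E10.5 to -3.25. Pax3 was higher in Sox10 than in neural cells at E8.5 (1.54) and lower at E9.5 (-0.84) and E10.5 (-0.70), differences of 2.39 and 2.24. The E8.5 library alone was made with the version 2 kit and from the anterior embryo, so stage, kit and tissue cannot be told apart.

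The ratio of null to control CPM lay on opposite sides of 1 at E10.5 and E9.5 for 5 values. In the mesenchymal class it was 2.68 at E10.5 and 0.973 at E9.5 for Tfap2a, 3.62 and 0.864 for Tfap2b, 4.91 and 0.901 for Pax3, and 7.25 and 0.544 for Pax7, which rests on few UMIs. In the Sox10 class it was 0.473 and 1.21 for Ets1. At E9.5, with 1 library per genotype, the counting intervals of control and null overlapped for Tfap2a, Pax3 and Pax7, so no direction can be read there. The summed neuron markers of the mesenchymal class moved with the first 4, at 48.3 and 38.3 CPM in control and 85.9 and 775 CPM in null at E10.5 and 11.4 and 9.25 CPM at E9.5. In E10.5 mesenchymal cells without Elavl3 and Elavl4 UMIs the null and control libraries overlapped for Pax7 and not for Tfap2a, Tfap2b and Pax3, against 45.9% of all genes that did not overlap.

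Cells that met no gate enter no comparison, yet they held AP-2 transcripts. At E10.5 Tfap2a averaged 74.3 CPM in control and 124 CPM in null (ratio 1.67), Tfap2b 371 and 544 CPM (1.46) and Pax3 57.3 and 81.5 CPM (1.42). These differences were not tested.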

How the results depend on the processing

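The 5 rises and 1 fall at the step into Sox10 cells kept their calls under every alternative run, and no value tested under the alternatives turned its direction among those called. Leaving out 1 library gave 4156 to 5689 called genes and 6 to 7 called members at the first step, 2547 to 5155 and 7 to 9 at the second, 31 to 34 separated pairs in the order, 89 to 6112 genes and 0 to 3 members between stages in the mesenchymal class (89 without control E9.5, 384 without null E9.5), 0 to 2865 and 0 to 2 in the Sox10 class (2865 without null E10.5 replicate 1, 0 without control E9.5 or control E10.5 replicate 2). For genotype at E10.5 the ranges were 29 to 1108 genes and 0 to 4 members in the mesenchymal class, 0 to 1566 and 0 to 2 in the Sox10 class, 20 to 48 and 0 to 0 in the neural class, and 0 to 1163 and 0 to 5 for the interaction, the highest each time without null E10.5 replicate 1 except in the neural class.

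The number of genotype calls moved with the processing. In the mesenchymal class 6 genes became 344 with DESeq2, 808 with no filter, 21 with gates read after thinning, 18 with stricter gates and 0 with 6 libraries and stage as a covariate, and 0 members became 2 with DESeq2 and 5 with no filter. In the Sox10 class 0 genes became 46, 415 and 4 (DESeq2, no filter, thinned gates) and 23 without Elavl3 and Elavl4 cells, with 1 member under no filter. In the neural class 0 became 46 (DESeq2) and 142 (no filter). For the interaction 0 genes became 85 (DESeq2), 474 (no filter), 1 (looser cell filter), 46 (thinned gates), 15 (stricter gates), 101 (no Elavl3 and Elavl4 cells) and 31 (Sox2-positive cells added), and 0 members became 1, 7 and 3 with DESeq2, no filter and no Elavl3 and Elavl4 cells. Between stages 920 genes in the Sox10 class became 2002 (DESeq2), 2663 (no filter), 555 (looser filter), 2275 (thinned gates), 2500 (Sox2-positive cells added) and 2680 (controls only), and 0 members 2, 2, 1 (thinned gates), 2 and 2. In the mesenchymal class the fit with controls only, where, as in the Sox10 class, E9.5 is 1 library, is read for its sizes alone. The median Sox10-class share moved from 3.40% to 5.63% with thinned gates. The causes were not tested.

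Replicate numbers at E10.5 share only a number. Same-numbered deviations correlated at 0.139 (mesenchymal), 0.0255 (Sox10) and 0.370 (neural class). With the replicate block 288, 43 and 139 genes and 3, 0 and 1 members were called in those classes, and 73 genes and 2 members for the interaction. Simulated 2-fold changes were recovered for at most 9% of genes in the genotype tests within a class and 37% for the interaction, against 80% and 83.5% at the 2 steps, so absence of a genotype call at this depth and number is weak information.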
